A study of Mus musculus with 6 samples.

Results

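Polycomb subunits are described here across the cells of 6 murine rhabdoid tumors. The 10 members are genes chosen by name, namely *Ezh1*, *Ezh2*, *Eed*, *Suz12*, *Rbbp4*, *Rbbp7*, *Jarid2*, *Bmi1*, *Ring1* and *Rnf2*, out of 16557 genes in the 6 tables, and all 10 were found in every table. UMIs (unique molecular identifiers, 1 per captured transcript) were summed per tumor over tumor cells and over immune-like cells.

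The study profiled *Smarcb1*-deficient rhabdoid tumors of the MYC group by droplet-based single-cell RNA-sequencing of 3′ transcript ends. Every mouse carried *Smarcb1* fl/fl with a tamoxifen-inducible Cre, and the dams had received 1 dose of 50 mg/kg tamoxifen at day 6.5 after coitus. The 3 MYC spinal tumors came from Rosa26-creERT2 mice, in which a ubiquitous promoter drives Cre, and were taken at 19 (MYC spinal 1), 26 (MYC spinal 2) and 17 weeks of age (MYC spinal 3). The 3 extracranial rhabdoid tumors (eRT) were eRT 1 (17 weeks, Rosa26-creERT2, at a gland), eRT 2 (29 weeks, in the jaw) and eRT 3 (22 weeks, at the shoulder). eRT 2 and 3 arose in Sox2-creERT2 mice, in which the promoter of a gene of early embryonic and neural progenitor cells drives Cre. The subtype and the site cannot be told apart, and eRT 1 alone separates the subtype from the mouse model. MYC spinal 1 and 3 and eRT 3 came from females, the rest from males.

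Polycomb proteins keep genes silent through 2 chromatin complexes. PRC2 holds a methyltransferase, Ezh1 or Ezh2, together with Eed, Suz12 and a histone chaperone, Rbbp4 or Rbbp7, and places methyl groups on a lysine of histone H3. PRC1 holds a ubiquitin ligase, Ring1 or Rnf2, with a partner such as Bmi1, and marks histone H2A. The SWI/SNF remodeling complex, of which Smarcb1 is a core subunit, opposes Polycomb silencing, and rhabdoid tumors are a known setting of that antagonism.

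After filtering, 22163 cells with 3841706 to 26184224 UMIs per tumor remained. Of these, 2485 (11.2%) were tumor cells, 15383 (69.4%) immune-like cells and 4295 (19.4%) neither. Tumor cells were the cells of clusters with no immune-like name and under 0.25 of the *Smarcb1* UMIs expected from immune-like cells. The low *Smarcb1* in tumor cells is thus the selection and not a finding. Their *Smarcb1* level was 0 to 6.41 CPM (UMIs of the gene per 1000000 UMIs of the pool) against 25.8 to 57.9 CPM in immune-like cells. The deleted part of the gene is not given in the sources used here, and 3′ tags need not lie in it. Numbers of tumor cells were 98, 13 and 1474 for MYC spinal 1, 2 and 3, and 68, 202 and 630 for eRT 1, 2 and 3. The 13 tumor cells of MYC spinal 2 held 43373 UMIs, in which 3 UMIs correspond to 69.2 CPM, so single values of that pool are imprecise. The 12 macrophage/monocyte markers summed to 23.1 to 735 CPM in the tumor pools and 1488 to 17298 CPM in the immune-like pools, and no marker of that list was at 0 in every tumor pool. The 10 neutrophil markers reached 17799 CPM in the highest tumor pool. The 6 fibroblast markers were at 67.4 to 1706 CPM in tumor pools and 2.77 to 15.8 CPM in immune-like pools. The part of cells or free RNA of the other kind in the results below was not tested.

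The promoters of *Ezh2* and *Suz12* are shown because they were the only member promoters with an E2F-type word, and because *Ezh2* was the member that rose most in cycling cells. E2F factors drive genes of DNA replication. The window runs from 250 bases before to 50 bases after the RefSeq start of each gene in GRCm38.p6, at chr6:47594981-47595280 on the minus strand for *Ezh2* and chr11:79992856-79993155 on the plus strand for *Suz12*. Capitals mark the word.
Ezh2: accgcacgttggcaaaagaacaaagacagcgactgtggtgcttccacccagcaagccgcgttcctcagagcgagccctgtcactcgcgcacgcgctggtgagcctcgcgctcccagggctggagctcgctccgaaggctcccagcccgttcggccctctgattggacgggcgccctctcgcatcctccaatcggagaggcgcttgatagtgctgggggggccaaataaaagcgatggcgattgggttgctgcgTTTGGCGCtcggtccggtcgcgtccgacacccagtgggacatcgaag
Suz12: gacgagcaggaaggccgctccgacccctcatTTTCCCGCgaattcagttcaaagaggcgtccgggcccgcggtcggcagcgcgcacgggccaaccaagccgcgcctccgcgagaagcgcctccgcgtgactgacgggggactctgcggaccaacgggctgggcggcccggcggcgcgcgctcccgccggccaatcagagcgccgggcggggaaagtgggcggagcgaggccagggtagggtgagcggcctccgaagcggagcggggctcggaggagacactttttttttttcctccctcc
The words TTTCCCGC, TTTGGCGC, TTTCGCGC and TTTGCCGC were searched on both strands, and each of these windows held a single match. In *Ezh2* the word began at position 4, counted from 1 at the start, and in *Suz12* it began at position -219. At least 1 word was found in 744 of 32851 promoters of this length (2.26%) and in 2 of 11 member promoters, *Jarid2* having 2. A match is a description of letters, and its absence in the other members says nothing on E2F.

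The first comparison asked how Polycomb levels in tumor cells relate to those in immune-like cells. Tumor cells held more *Rbbp7* and *Bmi1* and less *Ezh2* and *Jarid2*, while *Ezh1*, *Eed*, *Suz12*, *Rbbp4*, *Ring1* and *Rnf2* did not pass the test. Pools of both kinds were paired by tumor, since both came from 1 animal, and tested by quasi-likelihood in edgeR, with p-values adjusted by Benjamini-Hochberg over all 9475 genes tested. It called 2563 genes (27.1%), 1152 higher (12.2%) and 1411 lower (14.9%), against 4 of 10 members, 2 in each direction. The share of members called was thus not far from the background. The median log2 fold change was -0.28 over the members and -0.03 over all genes. With library sizes in place of TMM factors the median of all genes was 0.18, and the split of the calls turned to 1545 higher and 1140 lower.

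**Figure D1:**
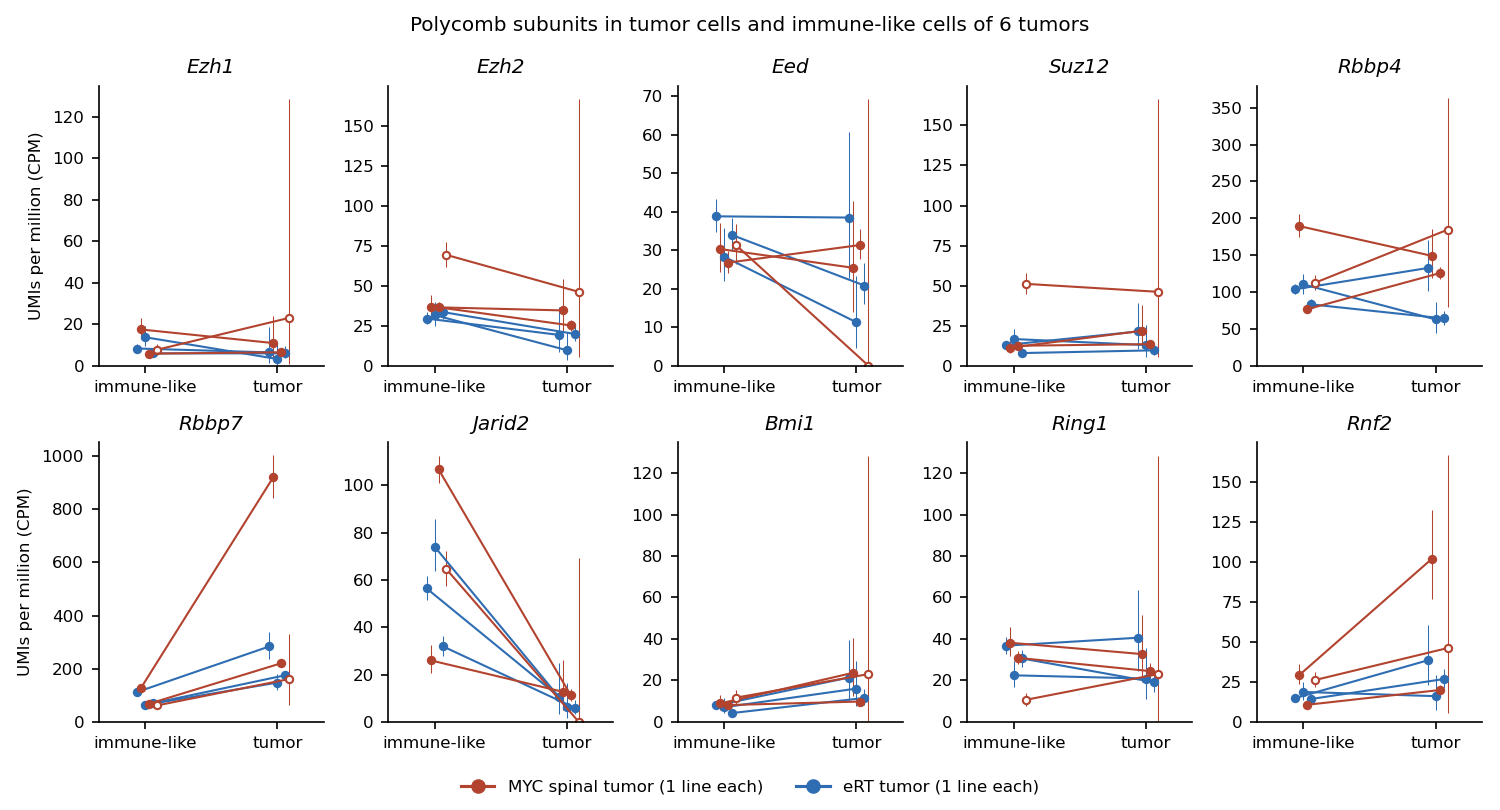
Each line joins the immune-like and the tumor pool of 1 tumor for each of the 10 members, in CPM on linear axes that start at 0, with exact 95% Poisson intervals for counting error (for a count of 0, up to 3 UMIs); red is MYC spinal, blue is eRT and open circles are MYC spinal 2, whose tumor pool holds 13 cells. *Rbbp7* rises and *Jarid2* falls in all 6 tumors without overlap of the pools, *Ezh2* falls within overlapping ranges, and the *Rbbp4* lines cross.

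*Ezh2*, the methyltransferase of PRC2 in dividing cells (chromosome 6, 47530139 to 47595341, minus strand, GRCm38), had tumor cell levels of 34.5, 46.1 and 25.1 CPM for MYC spinal 1, 2 and 3, and 19.2, 9.65 and 19.8 CPM for eRT 1, 2 and 3. Its immune-like levels, in this order, were 36.5, 69.2, 36.5, 29.4, 31.6 and 33.5 CPM. The level was thus lower in tumor cells in 6 of 6 tumors, by a ratio of 0.305 to 0.945, although the ranges of the pools overlapped. The log2 fold change was -0.88 ± 0.24 (SE, n = 6, edgeR adjusted p = 0.0187). With cycling cells left out of both kinds, the log2 fold change of *Ezh2* was -0.56 (edgeR adjusted p = 0.239). The call was also lost without eRT 2 (-0.81, edgeR adjusted p = 0.0554) and without eRT 3 (-0.90, edgeR adjusted p = 0.0628). Against macrophage/monocyte-like cells alone it was -0.84 (edgeR adjusted p = 0.1004), a log2 fold change close to the first. Other clusterings lost the call with smaller changes, at resolution 0.4 (-0.52, edgeR adjusted p = 0.120) and 1.6 (-0.71, edgeR adjusted p = 0.0600). So did clustering each tumor on its own (-0.65, edgeR adjusted p = 0.148) and library sizes without TMM factors (-0.67, edgeR adjusted p = 0.0895).

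*Ezh1*, the related methyltransferase known from resting cells (chromosome 11, 101191115 to 101226463, minus strand), had 82 UMIs in all tumor pools together and ranged from 3.22 to 23.1 CPM there, against 5.79 to 17.4 CPM in immune-like cells. Its log2 fold change was -0.50 ± 0.35 (edgeR adjusted p = 0.329), with 3 tumors in each direction. *Eed*, the subunit that binds the methyl mark (chromosome 7, 89954654 to 89980983, minus strand), was lower in 5 of 6 tumors. Its fold change of -0.62 ± 0.31 on the log2 scale did not pass (edgeR adjusted p = 0.179). Against macrophage/monocyte-like cells alone *Eed* passed, at -0.83 (edgeR adjusted p = 0.0394). MYC spinal 2 had 0 *Eed* UMIs in tumor cells, where 3 UMIs would be 69.2 CPM. *Eed* shares its strand with the overlapping gene model *Gm45120*, so its counts are uncertain. *Suz12*, which holds PRC2 together (chromosome 11, 79993106 to 80034123, plus strand), ranged from 9.57 to 46.1 CPM in tumor cells and from 7.86 to 51.1 CPM in immune-like cells, with the highest value of both kinds in MYC spinal 2. Its log2 fold change was 0.09 ± 0.27 (edgeR adjusted p = 0.913).

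The histone chaperones parted. *Rbbp7* (chromosome X, 162760402 to 162779092, plus strand) reached 921, 161 and 221 CPM in MYC spinal 1, 2 and 3 tumor cells, and 284, 148 and 176 CPM in eRT 1, 2 and 3. The immune-like pools, in this order, had 128, 61.9, 68.3, 112, 64.1 and 70.2 CPM. Every tumor pool was above every immune-like pool, the tumor cells of MYC spinal 1 stood highest, and the ratio within a tumor was 2.31 to 7.19. Pools did not overlap for 960 of 9475 genes (10.1%) and for 2 members, *Rbbp7* and *Jarid2*. These immune-like pools mix cell types, and single types reached into the *Rbbp7* range of tumor cells. The highest T-, myeloid progenitor-, NK- and B-like pools were at 251, 230, 220 and 167 CPM. The log2 fold change of *Rbbp7* was 1.43 ± 0.26 (edgeR adjusted p = 0.00213). It was 1.13 (edgeR adjusted p = 0.00557) without MYC spinal 1, and the call held under all 21 alternatives. *Rbbp7* is X-linked, and the tumor cells of the 3 females (921, 221 and 176 CPM) and of the 3 males (161, 284 and 148 CPM) overlapped, and the sexes were not tested against each other. Its paralog *Rbbp4* (chromosome 4, 129307100 to 129335370, minus strand) was higher in tumor cells in 3 tumors and lower in 3. It ranged from 62.7 to 184 CPM in tumor cells and from 76.7 to 189 CPM in immune-like cells, with a log2 fold change of -0.20 ± 0.24 (edgeR adjusted p = 0.593).

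*Jarid2*, the accessory subunit that helps to bring PRC2 to its targets (chromosome 13, 44729474 to 44921643, plus strand), had the largest log2 fold change of the members in size. For MYC spinal 1, 2 and 3 the tumor cells had 12.7, 0 and 11.2 CPM, and for eRT 1, 2 and 3 they had 10.7, 6.43 and 5.94 CPM. Immune-like cells held 26.0, 64.5, 107, 56.4, 74.1 and 32.0 CPM. The tumor pool was the lower one in 6 of 6 tumors and the ranges did not overlap. Its log2 fold change was -2.79 ± 0.35 (edgeR adjusted p = 0.000215), and -2.74 (edgeR adjusted p = 0.000809) without MYC spinal 2, in which 0 UMIs in 13 cells allow up to 3 UMIs or 69.2 CPM. The call held under all 21 alternatives, from -3.13 to -2.34.

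Of the PRC1 members, *Bmi1* (chromosome 2, 18677018 to 18686629, plus strand), the partner that stimulates the ubiquitin ligase, had tumor cell levels of 23.6, 23.1 and 9.83 CPM for MYC spinal 1, 2 and 3, and 21.4, 16.1 and 11.6 CPM for eRT 1, 2 and 3. Immune-like cells held 8.89, 11.7, 8.14, 7.92, 7.07 and 4.28 CPM. The level was higher in tumor cells in 6 of 6 tumors, with ratios of 1.21 to 2.70, and the ranges overlapped. The log2 fold change was 0.92 ± 0.30 (edgeR adjusted p = 0.0445), close to the threshold of 0.05, and 13 of 20 alternatives lost the call, the fit without the replicate block among them (0.79, edgeR adjusted p = 0.0957). The 4 tumors whose removal ended it were MYC spinal 1 (edgeR adjusted p = 0.124), eRT 1 (0.122), eRT 2 (0.139) and eRT 3 (0.163). Tumors were fewer and the log2 fold change stayed at 0.81 to 0.84 in these 4 fits.

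*Rnf2*, the ubiquitin ligase also called Ring1b (chromosome 1, 151458004 to 151500955, minus strand), had tumor cell levels of 102, 46.1 and 19.9 CPM for MYC spinal 1, 2 and 3, and 38.5, 16.1 and 26.7 CPM for eRT 1, 2 and 3. In immune-like cells it was at 29.3, 26.2, 10.7, 14.9, 18.7 and 14.3 CPM. It was higher in tumor cells in 5 of 6 tumors, the exception being eRT 2. The log2 fold change of 0.77 ± 0.27 just missed the threshold (edgeR adjusted p = 0.0558), and 7 of 21 alternatives put it past. *Rnf2* overlaps *Gm36527* on the same strand, so its counts are uncertain. *Ring1*, the other ligase (chromosome 17, 34020792 to 34024680, minus strand), was at 19.1 to 40.6 CPM in tumor cells and at 10.6 to 38.2 CPM in immune-like cells, with a log2 fold change of -0.37 ± 0.25 (edgeR adjusted p = 0.313).

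The share of a paralog within its pair does not depend on the scaling of a pool. Capture can differ between genes, so only the change of a share between kinds of cells was compared. *Rbbp7* took 86.1%, 46.7% and 63.8% of the *Rbbp4* and *Rbbp7* UMIs in MYC spinal 1, 2 and 3 tumor cells, and 68.2%, 70.2% and 73.3% in eRT 1, 2 and 3. In immune-like cells the share was 40.4%, 35.5%, 47.1%, 52.0%, 36.8% and 45.8%. It was thus higher in tumor cells in 6 of 6 tumors, by 25.1 percentage points (68.0% ± 12.9 against 42.9% ± 6.46, SD, n = 6, exact two-sided permutation p = 0.03125, the smallest that 6 pairs can give, and 0.0938 adjusted over the 3 pairs of genes). Without MYC spinal 1 the difference was 21.0 points. The *Rnf2* share of *Ring1* and *Rnf2* was 54.2% ± 13.3 in tumor cells and 35.1% ± 8.85 in immune-like cells of the 5 tumors with at least 10 UMIs of the pair in both kinds. It was higher in 4 of 5 (exact permutation p = 0.125, adjusted 0.188, smallest possible 0.0625). The *Ezh2* share of *Ezh1* and *Ezh2* was 76.9% ± 1.94 against 79.3% ± 8.52 in 4 tumors (exact permutation p = 0.625, smallest possible 0.125).

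**Figure D2:**
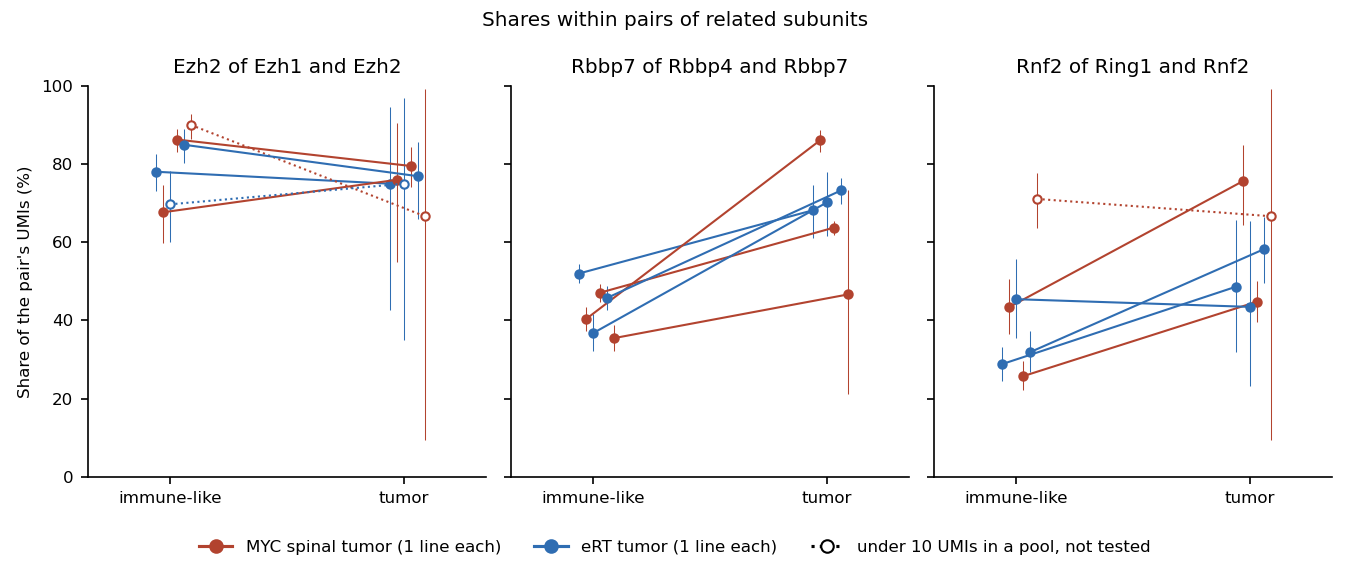
Share of the UMIs of a pair of related subunits (%, axis from 0 to 100) in immune-like and tumor cells, 1 line per tumor, with exact 95% binomial intervals for counting error; dotted lines and open circles mark tumors with under 10 UMIs of the pair in a pool, which were not tested. The *Rbbp7* share rises in all 6 tumors, the *Rnf2* share in 4 of the 5 tested, and the *Ezh2* share in tumor cells lies near that of immune-like cells.

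Beyond the members, 34 of 38 other Polycomb genes could be tested between tumor and immune-like cells, and 7 were higher and 3 lower in tumor cells. These 10 are 29.4% of the genes tested, near the 27.1% of all genes, with 20.6% higher and 8.82% lower beside 12.2% and 14.9% of all genes. Their median log2 fold change was 0.29. By list, 7 rose and 1 fell of 23 tested in the PRC1 list, 0 and 1 of 5 in the PRC2 accessory list and 0 and 1 of 6 among the erasers, and the lists were not tested against each other. *Cbx6*, a chromodomain subunit, rose by 3.40 ± 0.37 on the log2 scale (edgeR adjusted p = 8.76e-05). It was at 23.1 to 90.8 CPM in tumor cells and at 1.18 to 11.2 CPM in immune-like cells, so the kinds did not overlap. *Phc1* and *Phc2*, the polyhomeotic subunits that join PRC1 particles, rose by 1.61 ± 0.38 (edgeR adjusted p = 0.0107) and 0.99 ± 0.25 (0.0152), in 6 of 6 tumors each. *Pcgf3*, a relative of *Bmi1*, rose by 1.35 ± 0.31 (edgeR adjusted p = 0.00890), also in 6 of 6. *Auts2* (2.97 ± 0.73, edgeR adjusted p = 0.0126) and *Bcorl1* (1.82 ± 0.47, edgeR adjusted p = 0.0163), members of variant PRC1, passed the test but were higher in only 4 and 5 of 6 tumors. *Yaf2*, the seventh, rose by 0.81 and was outside the rule for named genes.

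Among the other Polycomb genes that fell, *Kdm6b*, a demethylase that removes the PRC2 mark, changed most, by -1.90 on the log2 scale (SE 0.30, edgeR adjusted p = 0.000788). It was lower in 6 of 6 tumors, and it was the 1 of 6 tested erasers to pass. *Lcor* fell by 1.10 (edgeR adjusted p = 0.0484) and was the 1 of 5 tested PRC2 accessory genes to pass. *L3mbtl2* fell by 1.08 (edgeR adjusted p = 0.0425) and was the 1 gene of the PRC1 list called lower, beside 7 called higher. The calls of *Lcor* and *L3mbtl2* were lost in 12 and 11 of 20 alternatives each.

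*Cdkn2a* and *Cdkn2b*, cell cycle inhibitor genes known as Polycomb targets, were both higher in tumor cells. *Cdkn2a* had tumor cell levels of 120, 69.2 and 370 CPM for MYC spinal 1, 2 and 3, and 111, 77.2 and 150 CPM for eRT 1, 2 and 3. In immune-like cells it was at 5.60, 0.851, 18.2, 25.9, 7.90 and 5.65 CPM. The kinds did not overlap, and the log2 fold change was 3.79 ± 0.41 (edgeR adjusted p = 8.49e-05). *Cdkn2b* rose by 1.98 ± 0.41 (edgeR adjusted p = 0.00634). It was higher in 5 of 6 tumors, both pools of MYC spinal 2 being at 0.

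**Figure D3:**
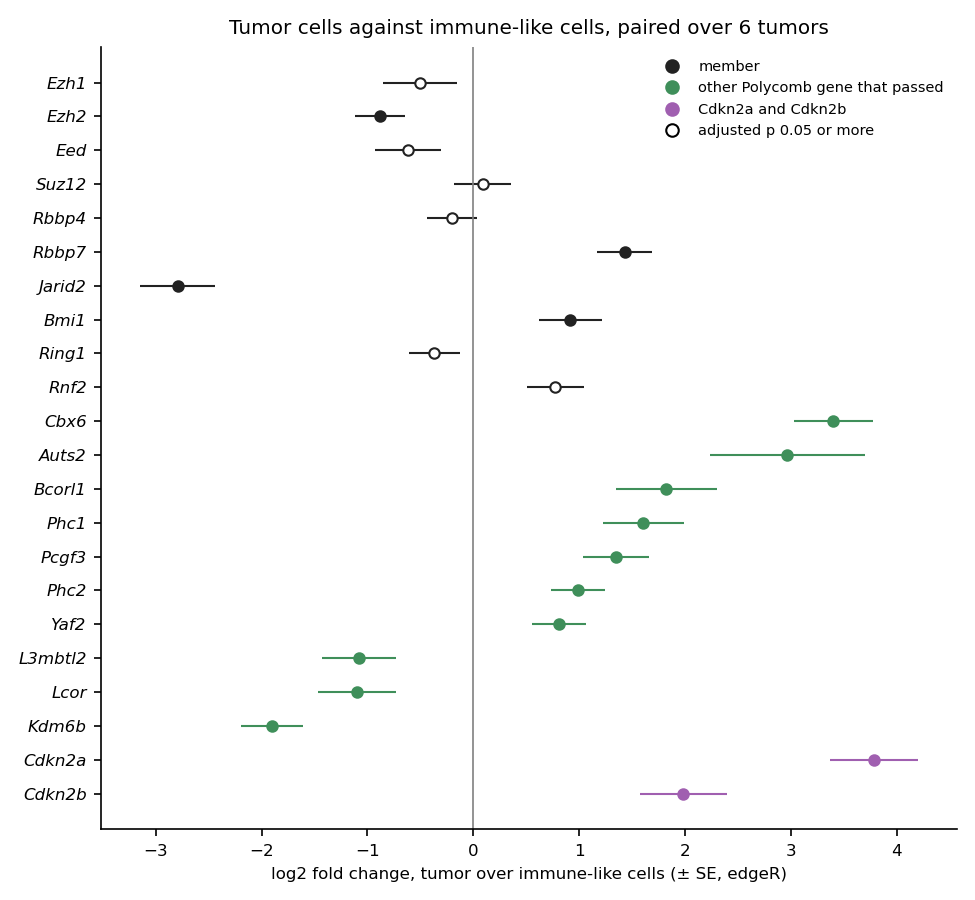
Log2 fold changes of tumor over immune-like cells, paired over 6 tumors, with their standard errors from edgeR (horizontal bars), for the 10 members (black), the other Polycomb genes that passed (green) and 2 target genes (purple); open symbols have an adjusted p of 0.05 or more. *Jarid2* at -2.79 and *Rbbp7* at 1.43 are the members farthest from 0, and *Cbx6* and *Cdkn2a* lie above 3.

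The subtypes were then set against each other, in tumor cells, in immune-like cells and as the difference between kinds of cells. No member passed in any of the 3 tests. In tumor cells edgeR called 0 of 5701 genes (0%), with 194 at an unadjusted p under 0.05 and 21 by DESeq2. The 8 members tested had a median log2 fold change (eRT over MYC spinal) of -0.32, against 0.05 over all genes. *Ezh2* was at 16.2 ± 5.71 CPM in eRT and 35.3 ± 10.5 CPM in MYC spinal tumor cells (SD, n = 3 each), and the 3 eRT lay below the 3 MYC spinal tumors. These levels come from 19, 2 and 202 *Ezh2* UMIs in MYC spinal 1, 2 and 3, and from 9, 6 and 60 in eRT 1, 2 and 3. Those of MYC spinal 2, with 13 tumor cells, and of eRT 1 and 2 are thus imprecise, and so is the order. How many of all genes separate the subtypes in this way was not counted. The log2 fold change of *Ezh2* was -0.58 ± 0.40 and did not pass. *Ezh1* and *Jarid2* were too low to be tested in this comparison. *Rbbp7*, at 203 ± 72.0 CPM in eRT and 434 ± 423 CPM in MYC spinal, differed by -0.75 ± 0.59, and by 0.25 without MYC spinal 1. With the Cre line as a further term, an alternative added after the data had been seen, *Ezh2* differed by -0.62 and *Rbbp7* by -0.50 on the log2 scale and 0 genes were called, the subtype then resting on eRT 1 alone.

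In immune-like cells edgeR called 0 of 10613 genes (0%), with 200 at an unadjusted p under 0.05 and 10 by DESeq2, and the median of the 10 members was -0.32 against -0.09 over all genes. The largest difference was that of *Suz12*, at -1.14 ± 0.77 on the log2 scale, and it was 0.17 without MYC spinal 2. For the difference between kinds of cells, eRT minus MYC spinal, edgeR called 0 of 11310 genes (0%), with 335 at an unadjusted p under 0.05 and 2 by DESeq2. Among the members this difference ran from -0.43 in *Ezh1* to 0.81 in *Bmi1*, with standard errors of 0.54 to 0.82, so that only large differences between subtypes could have been seen with 3 tumors each.

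Proliferation was examined next, because *Ezh2* is known to follow the cell cycle. A cell was taken as cycling when S and G2/M genes, no Polycomb gene among them, held at least 0.5% of its UMIs and at least 5 UMIs. The share of cycling cells was 5.45% to 23.1% among tumor cells and 4.95% to 37.7% among immune-like cells of the 6 tumors, highest in the immune-like cells of MYC spinal 2. Shares between 0.4% and 0.6%, near the limit, were found in 199 tumor cells and 1227 immune-like cells.

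In tumor cells, cycling and other cells were compared in the 4 tumors with at least 10 cells of both. edgeR called 592 of 5109 genes (11.6%), 290 higher (5.68%) and 302 lower (5.91%) in cycling cells. The number and its split rested on single tumors, with 110 higher and 31 lower without MYC spinal 3 and 148 higher and 70 lower without eRT 3. Without the replicate block 59 were higher and 0 lower. Of the 6 members tested, *Ezh2* alone passed. It was at 67.3 CPM in the cycling tumor cells of MYC spinal 1, 67.8 CPM in MYC spinal 3, 61.8 CPM in eRT 2 and 44.7 CPM in eRT 3. The other tumor cells held 28.2, 12.8, 6.78 and 16.5 CPM in the same order. The level was higher in cycling cells in 4 of 4 tumors, although the cycling level of eRT 2 rests on 2 UMIs in 11 cells. The log2 fold change was 2.03 ± 0.26 (n = 4, edgeR adjusted p = 1.24e-07), and without MYC spinal 3, which holds 1474 of the tumor cells, it was 1.42 (edgeR adjusted p = 0.0836). For comparison, *Mcm5*, a replication gene of the list that defined cycling cells, differed by 2.24.

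*Rbbp7* differed by -0.45 ± 0.20 (edgeR adjusted p = 0.151) and *Ring1* by -0.70 ± 0.32 (edgeR adjusted p = 0.161) between cycling and other tumor cells. Without the highest Scrublet scores *Ring1* passed, at -1.03 (edgeR adjusted p = 0.0492). *Eed* (0.40), *Rbbp4* (-0.17) and *Rnf2* (-0.13) did not pass either, and *Ezh1*, *Suz12*, *Jarid2* and *Bmi1* were too low to be tested. *Jarid2* was lower in cycling tumor cells in 4 of 4 tumors, and so was *Ezh1*. All tumor cells of MYC spinal 1 and 3 and eRT 2 and 3 together held only 7, 90, 4 and 18 *Jarid2* UMIs. Of these cells 15, 248, 11 and 49 were cycling, so most of these directions rest on very few UMIs. The median over the 6 members was -0.15, against -0.06 over all genes.

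In immune-like cells all 6 tumors and all 10 members could be tested, so that the number of members called cannot be set against that in tumor cells. edgeR called 917 of 8815 genes (10.4%), 579 higher (6.57%) and 338 lower (3.83%). With library sizes in place of TMM factors the split was 800 and 205, without the replicate block 246 and 5, and without eRT 1 it was 381 and 115. With TMM factors, the block and all tumors, 4 of 10 members were called, 3 higher and 1 lower, and their median was 0.25 against -0.09 over all genes. *Ezh2* was at 88.2 to 133 CPM in cycling and 17.1 to 31.5 CPM in other immune-like cells, higher in 6 of 6 tumors. It rose by 2.25 ± 0.21 (n = 6, edgeR adjusted p = 7.06e-05). *Rbbp7* rose by 1.02 ± 0.12 (edgeR adjusted p = 0.000454), from 116, 31.5 and 58.0 CPM to 246, 87.2 and 125 CPM for MYC spinal 1, 2 and 3, and from 96.5, 58.8 and 58.5 CPM to 202, 130 and 132 CPM for eRT 1, 2 and 3. *Rbbp4* rose by 0.82 ± 0.14 (edgeR adjusted p = 0.00501), in 6 of 6 tumors. *Jarid2* fell by 1.08 (SE 0.18, edgeR adjusted p = 0.00417), also in 6 of 6 tumors. Without the pairing by tumor, that is without the replicate block, the log2 fold changes were 2.20 for *Ezh2*, 0.99 for *Rbbp7*, 0.76 for *Rbbp4* and -1.12 for *Jarid2*, close to those with it. *Ezh2* kept its call, while *Rbbp7* (edgeR adjusted p = 0.0772), *Rbbp4* (0.210) and *Jarid2* (0.460) lost theirs. Both pools of a tumor mixed cell types. Within macrophage/monocyte-like cells alone, an alternative added after the data had been seen, all 4 calls held, with log2 fold changes of 2.32 for *Ezh2*, 1.04 for *Rbbp7*, 0.63 for *Rbbp4* and -0.65 for *Jarid2*. Of 28 other Polycomb genes tested, *Cbx6* (1.18) and *L3mbtl2* (0.88) rose and the rest did not pass, and neither passed without the replicate block.

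Whether cycling changed a member differently in tumor and in immune-like cells was tested with an interaction term, likewise added later. edgeR called 10 of 9758 genes (0.102%), with no member among them. *Rbbp7* had the largest term of the members in size, -1.38 ± 0.28 on the log2 scale (edgeR adjusted p = 0.0795). Its levels in tumor cells were 978 and 628 CPM in other and cycling cells of MYC spinal 1, 232 and 184 CPM in MYC spinal 3, 148 and 155 CPM in eRT 2 and 179 and 154 CPM in eRT 3. Cycling tumor cells were thus the lower ones in 3 of 4 tumors, and cycling immune-like cells the higher ones in 6 of 6. *Rbbp4* had a term of -0.80 ± 0.31 (edgeR adjusted p = 0.915), and *Ezh2* one of -0.18 ± 0.45 (edgeR adjusted p = 1).

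**Figure D4:**
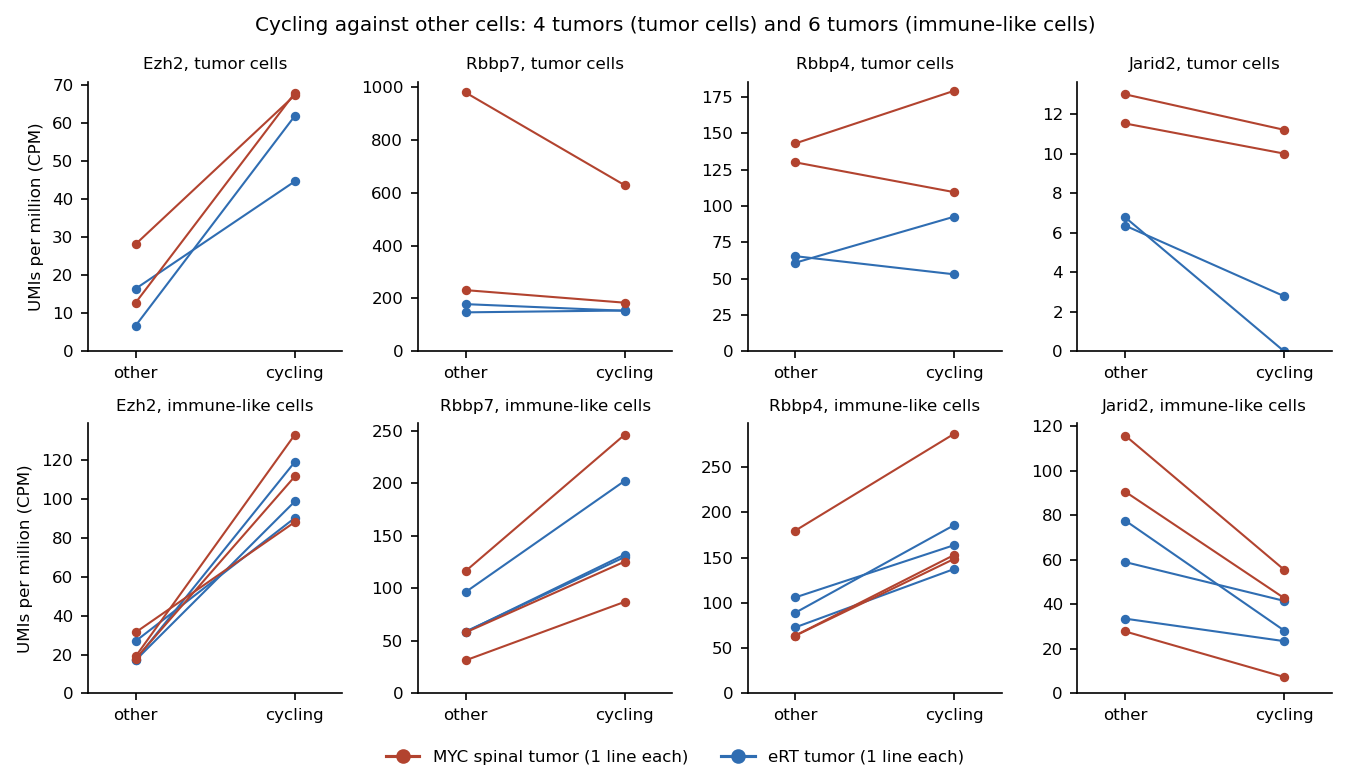
CPM (linear axes from 0) of *Ezh2*, *Rbbp7*, *Rbbp4* and *Jarid2* in cycling and other cells, 1 line per tumor, for tumor cells of 4 tumors (top) and immune-like cells of 6 tumors (bottom). *Ezh2* rises in every tumor in both kinds, whereas *Rbbp7* rises in 6 of 6 tumors in immune-like cells and in 1 of 4 in tumor cells. That 1 tumor, eRT 2, has 11 cycling tumor cells, and the interaction term of *Rbbp7* did not pass (edgeR adjusted p = 0.0795).

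Levels were then set out by cell type. Immune-like types were named from markers, and types with at least 20 cells in at least 3 tumors entered 1 test for any difference among them, with the tumor as a block. These were B-, T-, NK-, dendritic-, neutrophil-, macrophage/monocyte- and myeloid progenitor-like cells, in 30 pools. edgeR called 3099 of 5691 genes (54.5%) and 4 of the 8 members tested, again near the background: *Ezh2* (edgeR adjusted p = 0.0286), *Suz12* (0.0199), *Rbbp7* (0.0132) and *Jarid2* (0.00396). *Ezh1*, *Eed*, *Rbbp4* and *Ring1* did not pass, although *Rbbp4* did with DESeq2 (adjusted p = 0.0129) and with library sizes (edgeR adjusted p = 0.000360), and *Bmi1* and *Rnf2* were too low to be tested. Osteoclast-like cells (2 tumors) and plasmacytoid-like cells (1 tumor) were left out of the test. The plasmacytoid-like pool held 52.2 CPM of *Ezh2*, 43.5 of *Suz12*, 52.2 of *Rbbp7* and 60.9 of *Jarid2*, from 5 to 7 UMIs each.

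*Ezh2* had its highest mean in B-like cells (103 ± 128 CPM, SD, n = 3), which ranged from 11.6 to 248.5 CPM with 127 UMIs in all. Next came myeloid progenitor-like cells (92.4 ± 0.791, n = 3), precursors of granulocytes and monocytes. Myeloid progenitor-like cells were found only in MYC spinal 1, 2 and 3, in 20, 832 and 48 cells, so their mean covers 1 subtype. Their 3 pools held 169 *Ezh2* UMIs in all, so the small SD is no measure of precision. T-like cells followed (63.3 ± 48.1, n = 6), then dendritic-like (54.1 ± 23.2, n = 3), NK-like (40.9 ± 44.1, n = 6), macrophage/monocyte-like (32.3 ± 20.0, n = 6) and neutrophil-like cells (28.3 ± 10.4, n = 3). Tumor cells (25.7 ± 12.9, n = 6) stood between these and osteoclast-like cells (14.3 ± 1.74, n = 2). Neighbours in this order differed by less than the larger of their SDs. The call was lost with DESeq2 (adjusted p = 0.0626), without the replicate block (edgeR adjusted p = 0.169) and without MYC spinal 2 (edgeR adjusted p = 0.247), which held 509 of the B-like and 832 of the myeloid progenitor-like cells.

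The order was another one for *Jarid2*. Osteoclast-like cells, multinucleate cells of the monocyte line that resorb bone, held 96.9 ± 49.8 CPM (n = 2) and macrophage/monocyte-like cells 75.5 ± 43.2 CPM (n = 6). Neutrophil-like cells were at 58.8 ± 29.98 CPM (n = 3), dendritic-like cells at 54.7 ± 47.9 CPM (n = 3), B-like cells at 44.4 ± 30.3 CPM (n = 3) and myeloid progenitor-like cells at 42.8 ± 17.2 CPM (n = 3). Below them were T-like cells at 31.5 ± 30.2 CPM (n = 6) and NK-like cells at 22.7 ± 12.8 CPM (n = 6). Tumor cells were last of the 10 kinds of cells, at 7.83 ± 4.69 CPM (n = 6). Neighbouring types again differed by less than the larger of their SDs, except for the step from NK-like to tumor cells, which exceeded both SDs. The mean of tumor cells thus lay below that of every immune-like type, although single pools reached into the tumor range of 0 to 12.7 CPM. The lowest T-, NK- and dendritic-like pools were at 0 CPM, and the lowest B-like pool was at 11.6 CPM.

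*Rbbp7* was highest in tumor cells (319 ± 299 CPM, n = 6), above myeloid progenitor-like (149 ± 70.3, n = 3), T-like (144 ± 77.2, n = 6), B-like (144 ± 21.6, n = 3) and NK-like cells (121 ± 60.1, n = 6). Osteoclast-like (78.6 ± 25.6, n = 2), macrophage/monocyte-like (71.1 ± 35.4, n = 6) and dendritic-like cells (59.6 ± 23.8, n = 3) were lower, and neutrophil-like cells had the lowest mean (22.5 ± 7.25, n = 3). The step between tumor cells and the next type was smaller than the SD over tumors, which MYC spinal 1 sets. The call among immune-like types was lost without MYC spinal 3 (edgeR adjusted p = 0.0994). *Suz12* had its highest mean in B-like cells (61.7 ± 56.2 CPM, n = 3), at 23.8, 34.9 and 126 CPM from 67 UMIs in all. Most of these cells came from MYC spinal 2, at 509, against 31 in MYC spinal 1 and 25 in eRT 2. The means of the other types found in at least 2 tumors ranged from 13.1 to 33.0 CPM, tumor cells (20.9 ± 13.3, n = 6) included. The *Suz12* call was lost without MYC spinal 1 (edgeR adjusted p = 0.0688) and without MYC spinal 3 (0.0926).

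**Figure D5:**
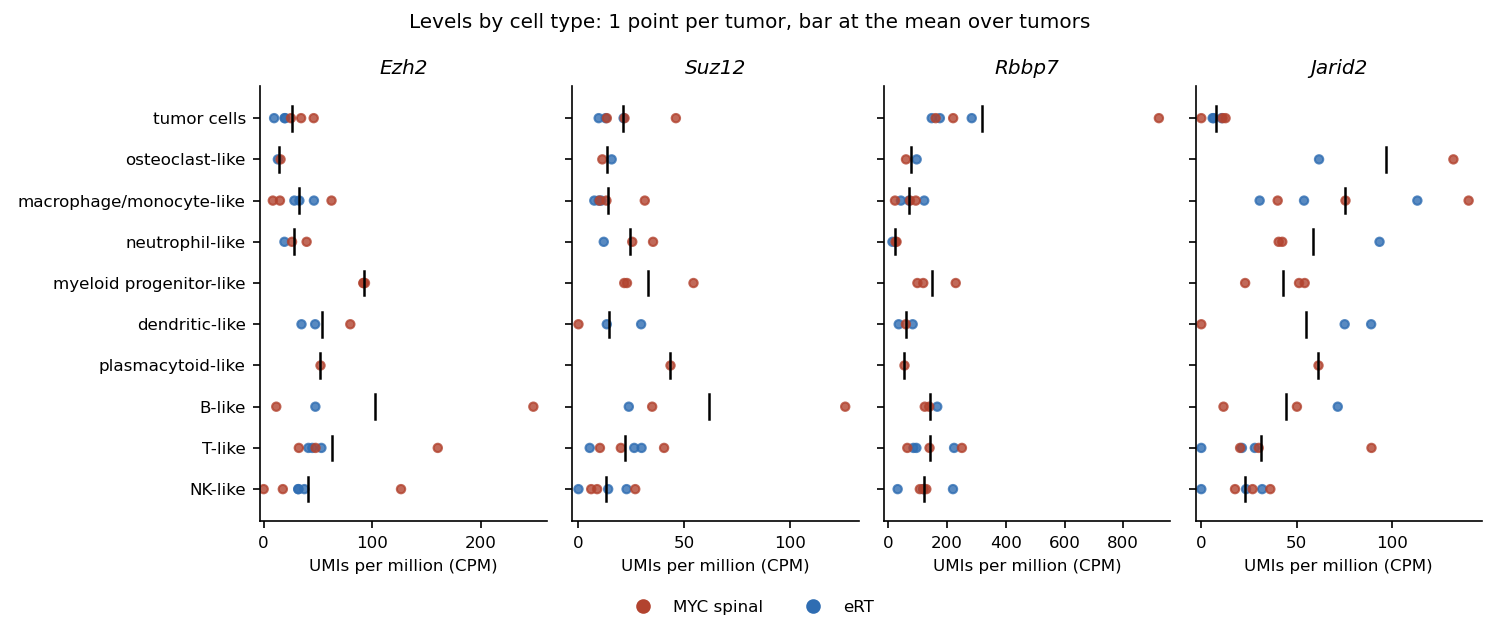
CPM (linear axes) of *Ezh2*, *Suz12*, *Rbbp7* and *Jarid2* in tumor cells and 9 immune-like cell types, 1 point per tumor with at least 20 cells of the type (tumor cells, at least 10), red for MYC spinal and blue for eRT, with a black bar at the mean. By their mean, tumor cells are to the right for *Rbbp7* and to the left for *Jarid2*, and B-like cells spread most for *Ezh2*.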

How the data were processed

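The series was deposited by the authors as UMI counts per gene and cell, 1 table for each of 6 tumors, as raw counts with no normalization. The authors made the libraries with droplet-based 3′ chemistry, and the submitters' processing notes name Cell Ranger 2.0.2 and the build mm10. The tables list genes found in at least 3 cells, and 0 columns were left unused. A gene missing from a table was counted as 0. Groups and mice were taken from the labels.

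Cells were kept from 200 genes upwards and up to a mitochondrial share of 25%. The tumors of a subtype were integrated in Seurat 5.3.0 (LogNormalize to 10000, 2000 variable genes, 30 dimensions, 20 neighbors, resolution 0.8), with *Smarcb1* and all Polycomb genes left out of the variable genes. A cluster without an immune-like name was tumor when its *Smarcb1* UMIs were under 0.25 of those expected, at least 10 being expected. A neutrophil-like cluster of 209 eRT cells, with 0.10 of the expected *Smarcb1* UMIs, thus counted as immune-like. A cluster took an immune-like name when 3 or more markers of a type were found in 10% or more of the cells, with a log2 fold of 1 or more, unless its 10 leading genes went against that name. The names were rebuilt here and are not the authors' annotation. Scrublet, through scanpy 1.11.5, marked 21 of 22163 cells (0.0948%), too few to have worked, and no doublet was removed. Cells carry running numbers, so barcodes shared between libraries could not be counted, and 0 cells had an identical vector of UMIs.

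UMIs were summed per tumor and kind for pools of at least 10 cells. edgeR 4.0.16 (TMM factors, filterByExpr, quasi-likelihood test, R 4.3.3) was run on all genes with Benjamini-Hochberg adjustment at 0.05. SEs were derived by dividing the size of a log2 fold change by the root of its F. Comparisons within tumors had the mouse as a block, since both pools came from 1 animal. Shares of paralogs were tested with exact sign-flip permutation over tumors. Intervals at 95% and the limit of 3 UMIs cover counting error only. A fall in CPM and a rise of other transcripts in the same pool cannot be told apart. All 10 members are named throughout, and of 38 other Polycomb genes, split into PRC2 accessory, PRC1 and eraser lists, at most 6 calls per comparison and direction by size. The members and lists were chosen with earlier results of these data known.

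Promoters came from RefSeq (GRCm38.p6, 10 of 10 members matched) and gene positions from GENCODE (GRCm38). The edgeR fits were tested on simulated data. Alternatives were DESeq2 1.42.0, library sizes, all genes, other cell filters, resolutions, *Smarcb1* limits of 0.15 and 0.5, other reference cells, other classes of cycling cells, each tumor left out, no pairing and the Cre line as a term.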

Additional observations from a re-analysis of the deposited data

How the results depend on the processing

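Between tumor and immune-like cells, *Rbbp7*, *Jarid2*, *Cbx6* and *Cdkn2a* kept direction and call under all 21 alternatives, and the call of *Ezh2* was lost in 8 of them. The cause of the changes listed here was not tested. With every gene of at least 1 UMI the calls numbered 4056 in that comparison, 1080 for cycling tumor cells and 4734 among cell types. DESeq2 called 207 genes for cycling tumor cells, and 2, 21 and 10 in the comparisons of subtypes (the difference between kinds, tumor cells, immune-like cells), where leaving out a tumor gave 0 to 2 for the first and the Cre line as a term, added after the data had been seen, gave 1 (*Pglyrp1*, no member). Calls for cycling tumor cells were 274 at a limit of 1%, 183 with phase calls and 141 to 764 with a tumor left out, 141 without MYC spinal 3 and 218 without eRT 3. Those for cycling immune-like cells were 498 with phase calls and 496 to 832 with a tumor left out, the fewest without eRT 1. Without the replicate block, that is without pairing by tumor, calls for cycling cells fell to 59 in tumor cells and 251 in immune-like cells, and *Suz12* stood at -0.47 between tumor and immune-like cells. Between the subtypes no paired analysis was possible, because the labels pair no replicate of one subtype with one of the other. *Suz12* gained a call in cycling immune-like cells without eRT 1 (1.07, edgeR adjusted p = 0.0197). All members that changed sign lacked a call. Between tumor and immune-like cells these were *Rbbp4* (0.035 with library sizes) and *Suz12* (-0.014 with DESeq2, -0.026 without the highest Scrublet scores, -0.015 against all other cells, -0.089 to 0.18 with a tumor left out). Between subtypes they were, for the difference of kinds, *Ezh2* (0.078 at resolution 1.6), *Jarid2* (0.064 at a *Smarcb1* limit of 0.5, 0.15 with the Cre line, -0.79 to 0.77 with a tumor left out) and *Rbbp7* (-0.78 to 0.054). In tumor cells they were *Bmi1* (-0.059 with library sizes, -0.12 to 0.71) and *Rbbp7* (-1.08 to 0.25). In immune-like cells they were *Rbbp7* (0.0023 with DESeq2, 0.0036 with all genes, 0.15 without cycling cells, 0.33 with the Cre line, -0.22 to 0.28), *Suz12* (-1.48 to 0.17), *Ring1* (-0.066 to 0.49) and *Jarid2* (-0.72 to 0.16). For cycling tumor cells they were *Rbbp4* (0.072 at 1%, 0.053 with phase calls) and *Rnf2* (0.15, 0.089, and -0.24 to 0.055 with a tumor left out). For cycling immune-like cells they were *Bmi1* (0.020 with library sizes), *Ring1* (-0.026 at 1%, -0.096 in macrophage/monocyte-like cells alone, -0.020 to 0.15) and *Rnf2* (-0.024 with phase calls, -0.28 in macrophage/monocyte-like cells alone, -0.080 to 0.25). Depth limited *Ezh1*, *Bmi1* and *Jarid2* in tumor cells, where 3 UMIs were 0.373 to 69.2 CPM.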

Other observations

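The cells of neither kind, those of clusters that took no immune-like name and were not tumor by *Smarcb1*, entered none of these comparisons except as part of an alternative reference. For MYC spinal 1, 2 and 3 they had 284, 83.9 and 121 CPM of *Rbbp7*, and for eRT 1, 2 and 3 they had 187, 76.7 and 135 CPM. Their *Jarid2* levels, in this order, were 11.8, 70.8, 101, 47.2, 190 and 36.1 CPM. In MYC spinal 1 it lay below that of the tumor cells of the same tumor (12.7 CPM), and in the other 5 above. *Ezh2* in the cells of neither kind was at 146, 102, 61.7, 58.9, 47.2 and 51.3 CPM in this order. Each of these values was above that of the immune-like pool of the same tumor. Cell cycle genes were among the 10 leading genes of some of these clusters, such as *Mki67* in 846 MYC spinal cells and *Ccnb1* in 564 eRT cells. Clusters of 846 and 421 MYC spinal cells and of 578 eRT cells came closest to the macrophage/monocyte list. Each had 2 of its markers, where 3 were needed for a name. Others came closest to other lists, such as fibroblast in 79 eRT cells. Which of these cells were immune was not tested. With all of them added to the reference, the log2 fold change of *Ezh2* in tumor cells was -1.09 (edgeR adjusted p = 0.00532).

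Over 41 pools of tumor cells and immune-like types with at least 20000 UMIs, the genes whose level ran most like that of a member were sought among 5174 genes with a mean of at least 20 CPM. The measure was Pearson's correlation of log2(CPM + 10). The pools share tumors and depth, so the values are a description. *Ezh2* ran with *Dek* (0.74), *Nasp* (0.69) and *Mcm7* (0.64), genes of chromatin and DNA replication. *Rbbp7* ran with *Trp53* (0.81), *Asf1a* (0.79), a histone chaperone, and *Clpp* (0.78), and *Jarid2* with *Ptpre* (0.77), *Nfam1* (0.76) and *5031439G07Rik* (0.74). The highest values of the other members were 0.86 for *Rbbp4* with *Nono*, 0.80 for *Ring1* with *Cpsf3*, 0.79 for *Suz12* with *Cbx3*, 0.72 for *Eed* with *Sike1*, 0.70 for *Bmi1* with *Smg6*, 0.68 for *Rnf2* with *Gm15013* and 0.67 for *Ezh1* with *Gm4950*.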
